A study of Mus musculus with 4 samples.

Results

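The 40 ribosome biogenesis genes described here encode nucleolar proteins and rRNA processing factors, were taken from a list of genes with a function known to be driven by MYC proteins, and were found by symbol among the 21861 features of every library. All 40 were measured in all 4 libraries. Ribosome biogenesis starts in the nucleolus, where RNA polymerase I transcribes a long precursor RNA. Small nucleolar ribonucleoproteins (snoRNPs) guide the methylation and pseudouridylation of this precursor, and large assemblies of processing factors cut and fold it into the RNAs of the small and the large ribosomal subunit. MYC and its neural relative MYCN bind the promoters of many of these genes through the E-box CACGTG, and enlarged nucleoli are a textbook feature of tumors with high MYC activity.

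The libraries came from brain tumors of 4 mice that all carried the alleles hGFAP-cre, Trp53 fl/fl and lsl-MYCN. Tumors were taken 43 days after birth (P43) from mouse 4 and mouse 5 and after 70 days (P70) from the other two, mouse 6 and mouse 7. Cre recombinase under the human GFAP promoter, which is active in neural precursor cells, deleted the floxed Trp53 gene and switched on a human MYCN transgene with luciferase at the Rosa26 locus, so no library came from a mouse without the transgene and the normal cells of each tumor served as the reference. Each mouse gave 1 library of droplet-based 3′ sequencing, in which unique molecular identifiers (UMIs) count captured mRNA molecules.

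The libraries held 1739 to 3693 barcodes and 13106786 to 40621958 UMIs, and any pair of them shared 1 to 3 barcodes. A level of 1 CPM stands for 1 UMI of the gene in 1000000 UMIs counted over the cells of a class. After filtering, 1456 to 3469 cells per mouse remained, with median depths from 1419 UMIs in mouse 4 to 10450.0 in mouse 7. In the normal cells, genes of the Y chromosome reached 223 CPM in mouse 4, which is labelled female, and 0.524 CPM in mouse 5, which is labelled male, whereas both P70 libraries matched their labels (187 and 0 CPM). The sex labels were therefore not used. The labelled brain tumor was checked against fixed markers. OL-like tumor cells, which resemble the oligodendrocyte lineage, carried 8689 to 9812 CPM of 10 oligodendroglial markers, NB-like (neuroblast-like) cells 3106 to 3726 CPM of 10 neuronal precursor markers and AC-like (astrocyte-like) cells 910.3 to 2626 CPM of 8 astrocyte markers. Mature oligodendrocytes (MOL), oligodendrocyte precursor cells (OPC), endothelial cells (EC), mural, Myeloid, dendritic (DC) and Lymphoid cells formed the normal classes. AC-like cells also held 2582 to 2976 CPM of the oligodendroglial markers. MOL held 37799 to 97832 CPM of them and OPC 3613 to 4830 CPM, so these markers were not particular to OL-like cells. Of the astrocyte markers, OL-like cells held 84.0 to 133 CPM and mural cells 818 to 1789 CPM, so this list did not separate AC-like from mural cells.

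An E-box was found in the promoter of a minority of the genes. RefSeq promoter windows of the assembly GRCm38.p6, from 250 bases before to 50 bases after the start of a gene, were at hand for 35 of the 40, and Fbl, Bop1, Rrp12, Npm1 and Rrs1 had none. CACGTG, which reads the same on both strands, stood in a window of 7 of the 35 genes (20%), of 12.5% of the 8201 genes with a window that were tested in OL-like cells and of 8.09% of all 27025 genes with a window. Genes can have more than 1 window, and the 35 had 39. The 7 stretches are shown because they are the members' sites for the factor that the transgene encodes, with the box in capitals. In Nop2, which encodes an rRNA cytosine methyltransferase of the large subunit, and in Utp18, a factor of the small-subunit processome, the box lay before the start of the gene, with its first base at position -60 and -20, respectively. The stretches are chr6:125131783-125131882 on the plus strand for Nop2 and chr11:93885767-93885866 on the minus strand for Utp18.
Nop2: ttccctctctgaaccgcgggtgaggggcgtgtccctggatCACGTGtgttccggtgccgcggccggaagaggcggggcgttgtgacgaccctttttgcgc
Utp18: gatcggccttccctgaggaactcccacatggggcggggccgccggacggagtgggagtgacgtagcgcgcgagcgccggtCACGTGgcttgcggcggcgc
In the other five, Pes1 (chr11:3963968-3963991, plus), Tsr1 (chr11:74898095-74898118, plus), Utp20 (chr10:88826765-88826786, minus), Utp4 (chr8:106893646-106893669, plus) and Wdr43 (chr17:71616223-71616246, plus), it lay just after the start, in the transcribed part.
Pes1: taggcagggCACGTGcgggaggaa
Tsr1: cttggtgcaCACGTGgactgcaga
Utp20: cactaactaCACGTGaggaaaa
Utp4: gcaagcgcgCACGTGgggccgggg
Wdr43: ccgggcgaaCACGTGgctgccgcg
These are matches of letters, and binding was not measured.

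The 40 genes were most abundant in the tumor cells of every mouse. In OL-like cells they summed to 12280.1, 13046, 12001 and 13632 CPM in mice 4 to 7 (12739.7 ± 741 CPM, SD, n = 4), which is 1.27% of all UMIs. Endothelial cells held 3094, 2740.2, 2865 and 3087 CPM (2947 ± 174 CPM, n = 4). Every OL-like value lay above every value of a normal class, and the lowest ratio of OL-like to EC within a mouse was 3.97 and the highest 4.76. In OL-like cells, Ncl and Npm1 made up about as much of the sum as the other 38 genes together, and in EC they made up less. The 38 genes reached 5948, 6557, 6098 and 6183 CPM in OL-like cells and 1936, 1763, 1576 and 1690.4 CPM in EC.

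**Figure D1:**
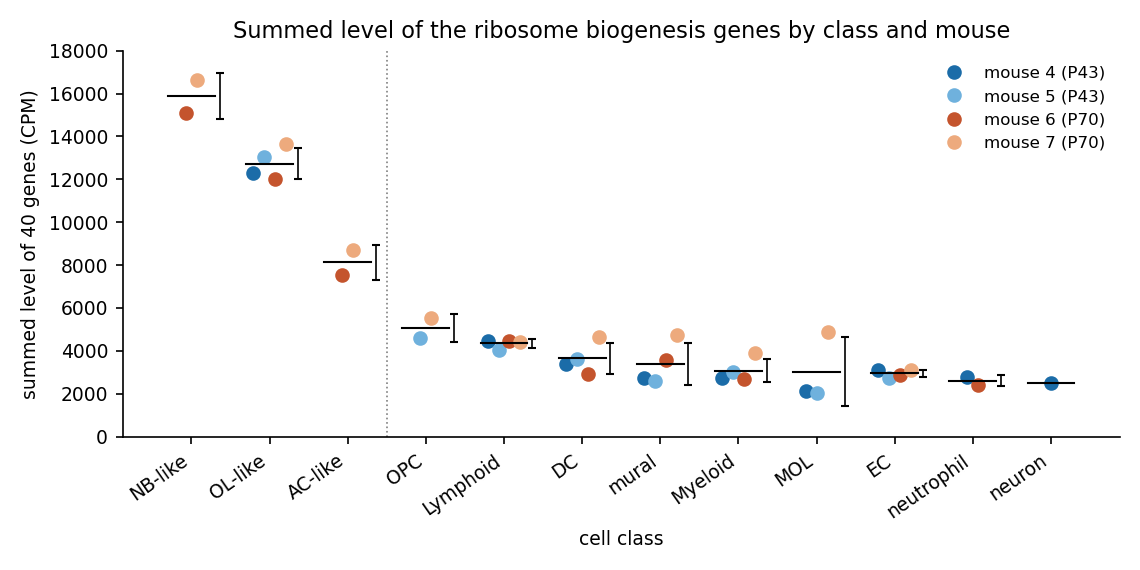
Summed level of the 40 ribosome biogenesis genes in CPM (vertical axis, linear) in each named cell class, with 1 point per mouse that held at least 20 cells of the class, a line at the mean and a bar of ± 1 SD beside it. The 3 tumor classes stand left of the dotted line, and their lowest value (7559 CPM, AC-like cells of mouse 6) is above the highest value of a normal class (5534 CPM, OPC of mouse 7).

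The normal classes kept a common low level with a few departures. Mural cells held 2747, 2580.3, 3577 and 4721 CPM, Myeloid cells 2724, 3020.2, 2693 and 3879 CPM and DC 3396, 3616, 2926 and 4649 CPM in mice 4 to 7. Mouse 7 was the highest of the mice in each of these 3 classes and also carried the most reporter RNA (human MYCN plus luciferase) in them, with 182, 60.1 and 351 CPM against 56.4 to 145, 10.2 to 16.9 and 15.8 to 26.6 CPM in the other mice. Lymphoid cells held 4453, 4032, 4459 and 4436 CPM. MOL, with 2136 and 2056 CPM in mice 4 and 5, had the lowest levels of these classes, but those of mouse 7 held 4893 CPM together with 521 CPM of reporter RNA, against 18.5 and 26.6 CPM in mice 4 and 5. The part of reporter RNA in these levels was not tested.

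Within the oligodendrocyte lineage, precursors stood between mature cells and tumor cells. In OPC, mouse 5 had 4602 CPM and mouse 7 had 5534 CPM, beside 264 and 256 CPM of reporter RNA, and mice 4 and 6 had fewer than 20 of these cells. OL-like cells exceeded OPC 2.83-fold in mouse 5 and 2.46-fold in mouse 7. OPC exceeded MOL 2.24-fold in mouse 5, which had 22 OPC, but only 1.13-fold in mouse 7. In both mice, 36 of the 40 genes were lower in OPC than in OL-like cells, as were 34.8% of the 7792 genes with at least 10 CPM. This comparison was chosen after the values had been seen and was not tested.

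Against endothelial cells, which the GFAP promoter does not reach, 38 of the 40 genes were higher in OL-like cells and none was lower (edgeR quasi-likelihood test on sums per mouse, mouse as a block, Benjamini-Hochberg adjusted p under 0.05). Of all 10782 genes tested, 31.4% were higher and 27.4% lower. The median difference was 1.86 on the log2 scale, or 3.64-fold, against 0.10 over all genes. For 36 genes, all OL-like values lay above all EC values, where 53.8% of all genes showed no overlap in either direction. The 2 exceptions to the rise were Rrp1 and Noc3l. EC of mouse 7 were only 36 cells with 71581 UMIs in all, so the values of single genes in them rest on few UMIs.

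The nucleolar scaffold genes were the most abundant. Npm1 encodes nucleophosmin, a chaperone of the granular part of the nucleolus (chr11:33152287-33163206, minus strand), and had 3878, 3828, 3431 and 4555 CPM in OL-like cells against 466, 388, 653 and 629 CPM in EC. The lowest OL-like value was thus above the highest EC value, and the fitted difference was 7.46-fold (log2 2.90, SE 0.25, adjusted p = 2.05e-05). After thinning of all cells to 2000 UMIs, 98.2% to 99.2% of OL-like cells and 52.0% to 65.3% of EC had a UMI of Npm1. Ncl, which encodes nucleolin, a protein that binds the nascent precursor RNA, had 2455, 2661, 2472 and 2894 CPM against 693, 589.9, 636 and 768 CPM (3.90-fold, adjusted p = 4.8e-05). Nolc1, a chaperone of snoRNPs, differed least in this group, with 209, 366, 187 and 358 CPM against 86.5, 71.8, 63.7 and 112 CPM (3.27-fold, adjusted p = 0.000319). Its OL-like values spread more between mice than those of Ncl or Npm1, but did not overlap with EC.

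The 7 genes of the list that encode core proteins of the snoRNPs were all higher in OL-like cells. Among the box C/D proteins, which carry out rRNA methylation, Nop56 rose most. It had 355, 455, 506 and 530.1 CPM in OL-like cells against 73.4, 82.5, 68.7 and 69.9 CPM in EC (5.99-fold, log2 2.58, SE 0.21, adjusted p = 1.68e-05). The methyltransferase itself, Fbl (fibrillarin), had 212, 314, 293 and 212 CPM against 73.4, 70.8, 72.8 and 83.8 CPM (3.51-fold, adjusted p = 0.000116). Both genes were apart from EC in every mouse. Among the box H/ACA proteins, which surround the pseudouridine synthase dyskerin (Dkc1), Nhp2 showed the largest difference of all 40 genes. Nhp2 had 451, 483, 514 and 446 CPM against 60.3, 42.8, 74.5 and 41.9 CPM in EC (8.49-fold, log2 3.09, SE 0.24, adjusted p = 1.3e-05). Nop10 was the most abundant of this group, with 617, 577, 494 and 549.8 CPM against 179, 153, 138 and 69.9 CPM (3.99-fold, adjusted p = 0.000123). Gar1 differed least, with 197, 186, 155 and 209.5 CPM against 56.3, 67.2, 59.6 and 69.9 CPM (2.91-fold, adjusted p = 0.000222). No H/ACA gene overlapped between the classes, although their products sit in 1 particle and their differences ranged from 1.54 to 3.09 on the log2 scale.

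RNA polymerase I subunits were low in number of UMIs, yet their OL-like values did not overlap with EC. Polr1a, its largest subunit, had 47.1, 88.1, 65.6 and 63.8 CPM in OL-like cells against 16.1, 12.2, 17.4 and 14.0 CPM in EC (4.36-fold, log2 2.12, SE 0.29, adjusted p = 0.000256). Polr1b, with which Polr1a forms the active site, had 27.6 to 32.0 CPM against 0 to 8.15 CPM, the EC values resting on 32 UMIs in all (adjusted p = 0.000737). The nucleolar RNA helicase gene Ddx21 was different. It had 227, 315, 276 and 139 CPM against 131, 143, 95.2 and 154 CPM (1.90-fold, log2 0.93, SE 0.26, adjusted p = 0.0124), and in mouse 7 the order was turned. The EC value of mouse 7 rests on few UMIs.

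The 12 genes of small-subunit (40S) processing were all higher, with differences from 0.87 to 2.72 on the log2 scale. Tsr1, a late maturation factor, stood at the top with 47.6, 55.1, 37.9 and 52.5 CPM against 10.1, 7.13, 4.14 and 14.0 CPM in EC (6.57-fold, SE 0.29 on the log2 scale, adjusted p = 6.56e-05). Ddx10, a helicase, stood at the bottom with 77.4, 94.2, 66.3 and 86.5 CPM against 56.3, 40.8, 31.4 and 55.9 CPM (1.83-fold, SE 0.22, adjusted p = 0.00714). The most abundant, Wdr43, a subunit of the complex that assembles first on the precursor, had 238, 269, 237 and 225 CPM against 83.5, 77.4, 72.0 and 83.8 CPM (3.10-fold, adjusted p = 0.000117). In all but Utp20 the classes did not overlap. Rrp12, which takes part in the export of pre-ribosomes, was the rarest gene of all 40, with 7.43 to 24.0 CPM in OL-like cells and 12 UMIs in EC.

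Among the 14 genes of large-subunit (60S) processing, 12 were higher. Gnl3, the GTPase nucleostemin, led this group with 313, 368, 472 and 346 CPM against 62.3, 65.2, 45.5 and 55.9 CPM in EC (6.51-fold, log2 2.70, SE 0.24, adjusted p = 2.23e-05). The genes of the PeBoW complex, which is needed for cutting the precursor of the large subunit, rose by 1.83 (Bop1), 1.56 (Pes1) and 1.93 (Wdr12) on the log2 scale. Rrp1 had 239.9, 226, 219 and 149 CPM in OL-like cells against 210.2, 205, 159 and 112 CPM in EC (1.21-fold, log2 0.28, SE 0.18, adjusted p = 0.224). Its paralog Rrp1b rose by 2.32 on the log2 scale. Noc3l had 27.0, 34.2, 16.7 and 34.8 CPM against 21.1, 19.9, 11.6 and 0 CPM (log2 0.67, SE 0.33, adjusted p = 0.11). The EC values of this gene rest on 74 UMIs, and its difference from mural cells was 0.01 on the log2 scale. Mrto4, which helps to build the stalk of the large subunit, has 2 annotated pseudogenes that may take part of its reads.

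The same direction was seen against each other class tested. Against mural cells, 37 genes were higher and none lower, where 25% of all genes were higher and 24.9% lower, and the median difference was 1.82 (all genes 0.03). Against Myeloid cells, 33 were higher (38.5% of all genes, with 23.7% lower, median 1.75 against 0.41). Against DC, 31 were higher (32.4% of all genes, with 25.2% lower, median 1.47 against 0.23). Against MOL, in the 3 mice with at least 20 of these cells, 37 were higher (21.9% of all genes, with 19.3% lower, median 1.78 against 0.11). None of the 40 was lower in any of these tests. MOL came only from a reporter cluster led by markers of mature oligodendrocytes, which was split after its reporter level had been seen. With this cluster left whole, no MOL class was named. With scaling by library size alone in place of TMM, the median of all genes moved by 0.29 for Myeloid cells and by 0.43 for DC and 39 genes were higher in each. The calls over all genes then moved from 4309 higher and 2658 lower to 5180 and 2307 for Myeloid cells and from 3598 and 2790 to 4923 and 2217 for DC. Without mouse 4, 24 genes were higher than in MOL, and with cells thinned to 1000 UMIs 24 of the 28 genes that passed the filter were.

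Of the 40 genes, 29 were higher than in EC, mural cells, Myeloid cells and DC alike, as were 16.6% of the 9986 genes tested in all 4, and the number was also 29 with MOL added (9.29% of 9736 genes). Nhp2 showed the largest difference from mural cells and from MOL, at 8.51-fold (adjusted p = 6.11e-05) and 10.6-fold (adjusted p = 0.00385). Mural cells had 44.2, 39.1, 80.8 and 85.6 CPM of Nhp2 in mice 4 to 7 and MOL had 28.3, 14.5 and 134 CPM in mice 4, 5 and 7, so that mouse 7 was the highest in both classes. Npm1 was 6.55-fold higher than in mural cells (407, 345, 879.7 and 1113 CPM, adjusted p = 0.000939) and 8.57-fold higher than in MOL (297, 282 and 1178 CPM, adjusted p = 0.00246). Nop58, a core C/D protein, had 37.0, 25.4 and 98.6 CPM in MOL and 362, 358 and 337 CPM in OL-like cells of the same mice (7.32-fold, adjusted p = 0.00177).

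Other genes showed the largest differences from the immune classes. Polr1b had 0, 2.26, 2.06 and 10.5 CPM in Myeloid cells, from 14 UMIs, and 3.8, 2.52, 1.61 and 4.8 CPM in DC, from 9 UMIs, and was 7.67-fold (adjusted p = 0.000736) and 9.28-fold higher (adjusted p = 0.000209) in OL-like cells. Wdr12 had 0, 13.6, 10.7 and 20.9 CPM in Myeloid cells against 109.8, 112, 115 and 125 CPM (7.92-fold, adjusted p = 5.1e-05). Dkc1 had 35.7, 22.6, 17.4 and 36.6 CPM in Myeloid cells against 219, 189.9, 211 and 237 CPM (6.93-fold, adjusted p = 8.9e-06). In DC, the U3 snoRNP protein gene Rrp9 had 15.2, 11.3, 11.6 and 0 CPM against 90.6, 107, 82.1 and 81.6 CPM (6.26-fold, adjusted p = 0.000167) and Rrp1b had 11.4, 18.9, 11.6 and 9.60 CPM against 97.3, 123, 112 and 102 CPM (6.20-fold, adjusted p = 2.54e-05). Each of these genes was separated from the immune class in all 4 mice.

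With TMM scaling, more genes missed the limit in the immune comparisons than in the others, 7 against Myeloid cells and 9 against DC. This order rests on the scaling, since with library size alone 1 gene missed it in each, against 2 for EC and 3 each for mural cells and MOL. The genes below are those of the TMM fit. Rrp1 and Noc3l passed against no class. Ddx21 passed only against EC and MOL, and Rrp12 only against EC and mural cells. Ddx10 missed the limit against Myeloid cells and DC, Noc4l and Pes1 against Myeloid cells, and Fbl, Polr1a, Utp18 and Utp20 against DC. Fbl had 201, 200.2, 151 and 163 CPM in DC, so that it was lower than in OL-like cells of every mouse, by 0.13 on the log2 scale after TMM (SE 0.20, adjusted p = 0.615), less than the 0.43 by which the scaling moved the median of all genes.

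**Figure D2:**
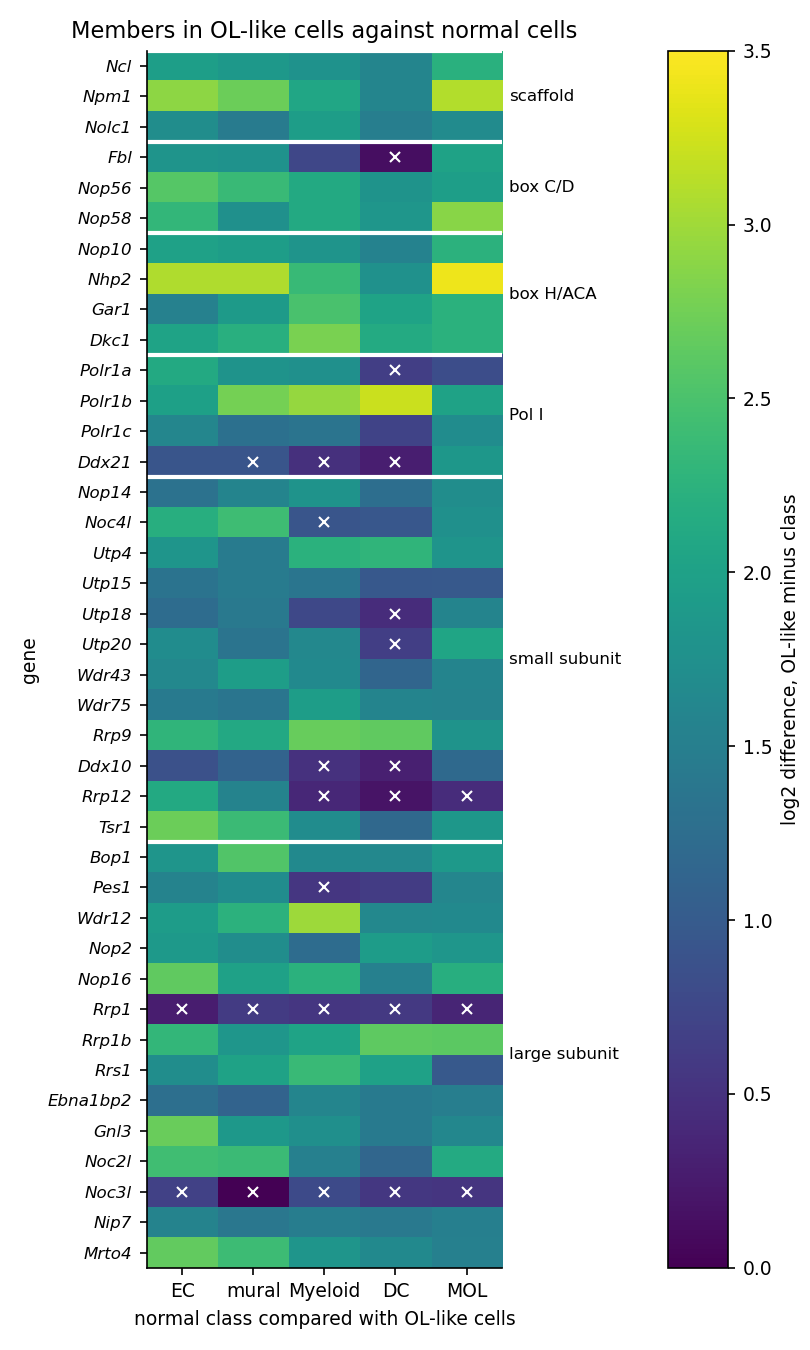
Log2 difference between OL-like cells and 5 normal classes (columns) for each of the 40 genes (rows, in groups by role), as fitted over the mice, with colour from 0 to 3.5. A cross marks a difference with an adjusted p of 0.05 or more, and crosses fill the rows of Rrp1 and Noc3l.

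Other genes of the pathway and the ribosomal protein genes were counted in the same tests. Of 77 further ribosome biogenesis genes, listed by function, 54 were higher than in EC, 54 than in mural cells, 51 than in Myeloid cells (1 lower), 34 than in DC (1 lower) and 52 than in MOL (1 lower). Of 80 cytosolic ribosomal protein genes, 64 were higher than in EC, 51 than in mural cells and 79 than in MOL. Against Myeloid cells, however, 4 were higher and 16 lower, which turned to 26 higher and 7 lower with scaling by library size alone, and against DC 1 was higher and 52 lower (7 and 25 with library size alone). Ribosomal protein genes took 19.9% to 22.5% of the UMIs of OL-like cells, 18.4% to 21.5% in Myeloid cells, 23.1% to 26.9% in DC and 4.24% to 11.2% in MOL.

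The 3 tumor classes carried different amounts of the 40 genes. In mice 6 and 7, NB-like cells held 15112 and 16639.7 CPM, OL-like cells 12001 and 13632 CPM and AC-like cells 7559 and 8692 CPM. NB-like cells thus exceeded OL-like cells 1.26-fold and 1.22-fold and AC-like cells reached 0.630 and 0.638 of them. Reporter RNA stood at 2549 and 2462 CPM in NB-like, 3156 and 1771 CPM in OL-like and 2421 and 2272 CPM in AC-like cells of the same mice, so that in mouse 7 NB-like cells had more of it than OL-like cells and in mouse 6 less. After thinning, 66.7% and 65.5% of NB-like, 44.5% and 39.6% of OL-like and 0% and 4.81% of AC-like cells were cycling, and the part of cycling in these levels was not tested between classes.

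Few of the 40 genes parted NB-like from OL-like cells. The comparison used the mice with at least 20 cells of both classes (28 and 598 NB-like cells in mice 6 and 7). By the same test, 5 of the 40 genes were higher in NB-like cells, close to the share of 11.7% over all genes. Downwards, 1 of the 40 passed, below the share of 13.8% over all genes. The median difference was 0.27, against -0.02 over all genes. Nop58 had 562 and 532 CPM in NB-like and 311 and 337 CPM in OL-like cells (log2 0.77, SE 0.20, adjusted p = 0.00087). Utp18 had 151 and 162 CPM against 90.1 and 94.4 CPM (log2 0.79, SE 0.25, adjusted p = 0.0098). Tsr1 had 79.6 and 77.7 CPM against 37.9 and 52.5 CPM (log2 0.78, SE 0.29, adjusted p = 0.0354). Ncl and Nop10 were the other two. Gnl3 went the other way, with 252 and 233 CPM against 472 and 346 CPM (log2 -0.69, SE 0.21, adjusted p = 0.00624). The calls were fragile: with DESeq2, without the mouse as a block or with a limit of 60000 UMIs per cell, none of the 40 genes passed. The last setting brought in 49 NB-like cells of mouse 4 and turned the mean ratio of the sums to 0.913. B cell markers summed to 1.84 to 197 CPM in NB-like and 0.146 to 2.25 CPM in OL-like cells, and their part was not tested.

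AC-like cells were low across the list. Of the 39 genes with at least 10 CPM, 34 were lower than in OL-like cells in both mice (43.6% of all such genes) and 2, Polr1c and Noc3l, were higher in both. Nhp2 had 162 and 259 CPM in AC-like against 514 and 446 CPM in OL-like cells. Rrp9 had 23.1 and 42.6 CPM against 82.1 and 81.6 CPM. Wdr43 had 238 and 162 CPM against 237 and 225 CPM and so was alike in mouse 6. The 10 Myeloid markers, none of them at 0, summed to 2595 to 6546 CPM in AC-like cells, against 48.3 to 233 CPM in OL-like and 20682 to 50258 CPM in Myeloid cells, and their part in these values was not tested. Such a sum can come from few of the 10: MOL held 521 to 1806 CPM with 8 of them at 0, and OPC 524 to 905 CPM with 7 at 0. It therefore does not show how much Myeloid RNA the AC-like cells held. The comparison of AC-like with OL-like cells was chosen after the values had been seen and carries no test.

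Over classes and mice, the summed level of the 40 genes went with the reporter RNA. Pearson's r of the log2 values was 0.91 over 36 class sums, and 0.87, 0.91, 0.92 and 0.90 within mice 4 to 7 (9, 8, 9 and 10 sums). Over the 28 sums of normal classes it was 0.70. Tumor clusters had been defined by their reporter RNA, so the value over all 36 sums restates in part the difference between tumor and normal classes. No correlation was computed over the tumor classes alone. Among them, NB-like cells of mice 6 and 7 held 2549 and 2462 CPM of reporter RNA with 15112 and 16640 CPM of the 40 genes. AC-like cells held 2421 and 2272 CPM of reporter RNA with 7559 and 8692 CPM. Spearman's rho was 0.82 over the 36 sums and 0.60, 0.52, 0.73 and 0.89 within mice 4 to 7. Unnamed cells were left out of these sums. In mice 4, 5 and 7 they held 683, 15113 and 1742 CPM of reporter RNA. Their levels of the 40 genes were 4368, 8779 and 7145 CPM, below OL-like cells of the same mice. The sums of a mouse share a library and its free RNA, so these values are a description only.

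**Figure D3:**
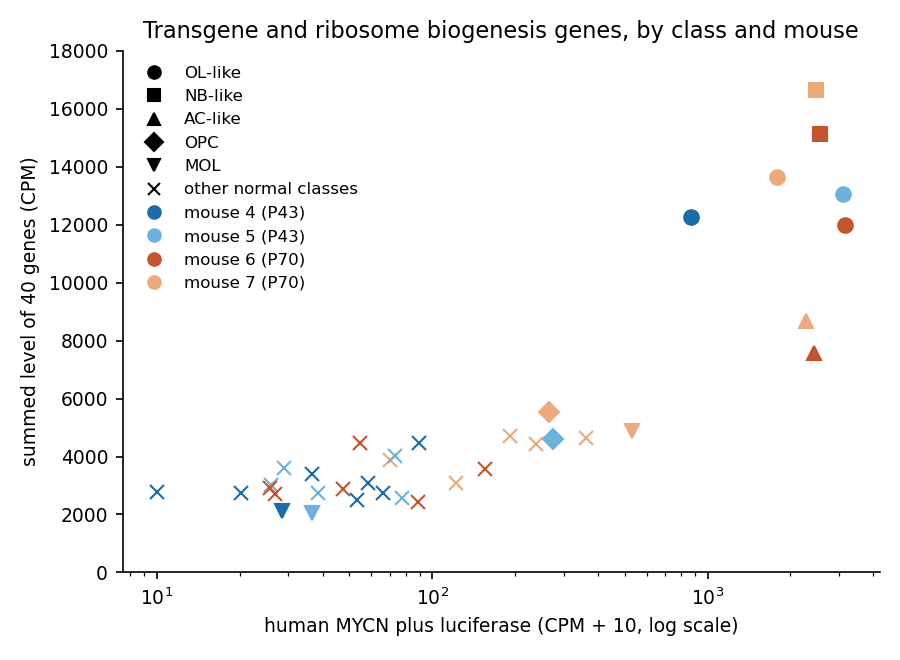
Summed level of the 40 genes (CPM, linear axis) against human MYCN plus luciferase (CPM with 10 added, log axis), with 1 point per named class and mouse, symbols for classes and colours for mice. Normal classes reach at most 5534 CPM, and AC-like, OL-like and NB-like cells of mice 6 and 7 form 3 steps at reporter levels from 1771 to 3156 CPM.

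Among OL-like cells, the 40 genes rose with the transgene in each mouse. Cells were thinned to 2000 UMIs and grouped by their UMIs of human MYCN plus luciferase, high with at least 4 and low with at most 1. The genes summed to 13984, 13645, 12879.7 and 15078 CPM in the high cells of mice 4 to 7 and to 11705, 10863, 11179.5 and 11922 CPM in the low cells. The high cells were above the low cells in all 4 mice and the groups did not overlap, at a mean ratio of 1.22. Cycling cells made up 56.7%, 41.3%, 39.7% and 39.4% of the high and 52.7%, 46.9%, 47.0% and 38.4% of the low cells. High cells were also deeper in every mouse. Their median depths before thinning were 6458, 25789, 7706 and 12677 UMIs, against 4914, 14399, 6059 and 11250.5 UMIs in low cells. The part of depth in the rise was not tested.

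The counts of the 40 genes rose from the first to the last bin in each mouse, but not at every step. From no reporter UMI to the highest bin with at least 20 cells, the mean count of the 40 genes per 2000 UMIs went from 22.3 to 29.6 in mouse 4, from 18.2 to 27.5 in mouse 5, from 20.6 to 28.4 in mouse 6 and from 22.4 to 33.2 in mouse 7. In mouse 4, the bins of 1 and of 2 to 3 reporter UMIs were alike at 26.3 and 26.0. In mouse 6, the first 3 bins were alike at 20.6, 21.1 and 20.1. In resting cells of mouse 7, the deepest library, the mean went from 20.3 through 21.9, 24.8 and 28.2 to 33.9. The bins also differed in their share of cells from a cluster led by markers of mature oligodendrocytes, which held fewer UMIs of the 40 genes than the other OL-like cells. This share went from 28.9% through 26.2%, 20.8% and 13.3% to 4.35% in these resting cells, and over all cells from 9.05% to 1.14% in mouse 4, from 29.2% to 0% in mouse 5 and from 15.6% to 4.95% in mouse 7, and was 8% and 9.21% in the first and last bin of mouse 6. In mice 4 to 6, OL-like cells without a reporter UMI among the 2000 held over 3 times the 5.55 to 5.94 UMIs of EC. A count of 0 in 2000 UMIs does not show that the transgene was absent: low cells, with 0 or 1, carried 477, 783 and 1114 CPM of reporter RNA in these mice, against 48.3, 28.5 and 37.2 CPM in EC.

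**Figure D4:**
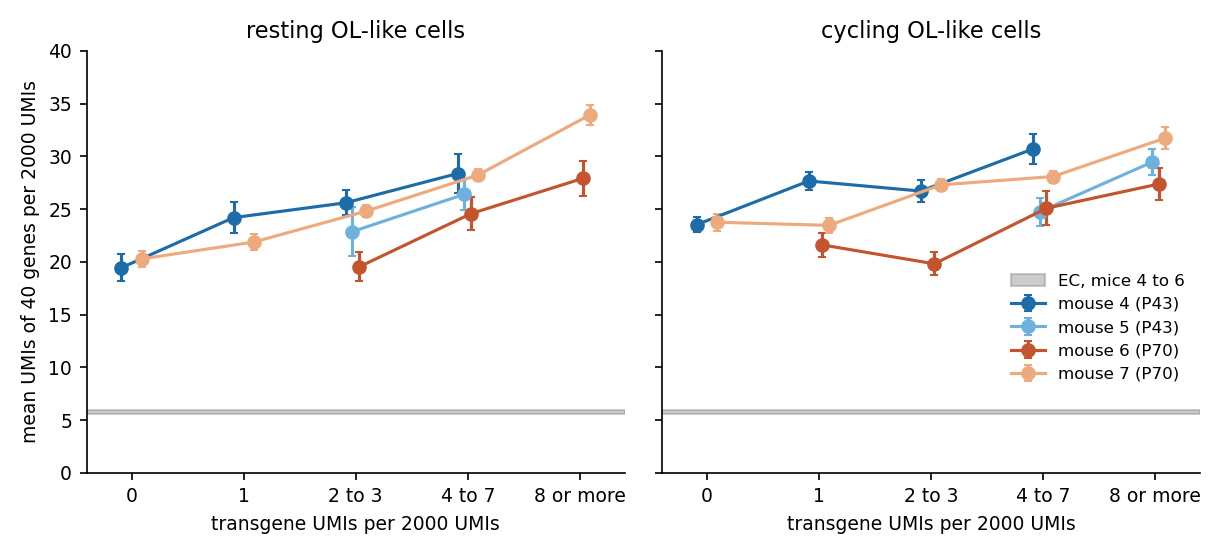
Mean UMIs of the 40 genes per 2000 UMIs (vertical axis) in OL-like cells by their transgene UMIs (horizontal axis, bins) in resting (left) and cycling cells (right), with 1 line per mouse, bins with at least 20 cells and bars of ± 1 standard error over cells. The grey band spans the means of EC in mice 4 to 6, from 5.55 to 5.94 UMIs.

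Gene by gene, 16 of the 40 passed the test between high and low cells, all upwards, whereas 1.66% of the 10149 genes tested were higher and 3.02% lower. The median difference was 0.26 on the log2 scale (all genes -0.01), and 15 genes did not overlap between the groups (4.14% of all genes). Polr1b, a subunit of RNA polymerase I, had the largest difference. It had 28.3, 36.3, 34.6 and 34.0 CPM in high and 22.4, 18.8, 14.6 and 21.1 CPM in low cells (1.57-fold, log2 0.65, SE 0.15, adjusted p = 0.0221). Rrp1b had 131, 136, 125 and 119 CPM against 86.9, 71.5, 82.0 and 82.7 CPM (1.5-fold, log2 0.58, SE 0.09, adjusted p = 0.00275). Both were higher in the high cells of every mouse without overlap. Utp20 had 50.4, 86.1, 51.9 and 40.2 CPM against 37.4, 44.5, 36.6 and 26.4 CPM (1.49-fold, log2 0.57, SE 0.12, adjusted p = 0.0155), so that it rose in every mouse while the mice themselves differed.

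The other genes that rose with the transgene were Polr1a, Tsr1, Nop2, Nolc1, Nop56, Ncl, Rrs1, Gnl3, Ddx10, Ddx21, Wdr12, Wdr43 and Noc2l. Polr1c, which RNA polymerases I and III share, did not pass (log2 0.08, SE 0.09, adjusted p = 0.675). Ncl had 2985, 2896, 2806 and 3337 CPM in high and 2225, 1892, 2081 and 2349 CPM in low cells (1.36-fold, adjusted p = 0.000272). Nop56 had 485, 492, 566 and 586 CPM against 319.9, 352, 369 and 454 CPM (1.38-fold, adjusted p = 0.00208). Neither overlapped between high and low cells.

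The 2 genes with the largest differences from EC, Nhp2 and Npm1, did not pass the test within the tumor. Nhp2 had 424, 486, 516 and 472 CPM in high and 474, 472, 589.9 and 424 CPM in low cells (log2 -0.08, SE 0.08, adjusted p = 0.587), higher in 2 mice and lower in 2. Npm1 had 4380.4, 3912, 3587 and 4948 CPM against 3769.8, 3489.7, 3409 and 4117 CPM, higher in 4 of 4 mice by 0.13 on the log2 scale (SE 0.05, adjusted p = 0.137). None of the 4 box H/ACA genes passed, and their median difference was 0.03, against 0.45 for RNA polymerase I and Ddx21. The difference between these groups of genes was not tested. They also differed in exon length, with 1109, 1146, 1714 and 4121 bases for Nop10, Nhp2, Gar1 and Dkc1. Polr1a, Polr1b, Polr1c and Ddx21 had 11871, 5805, 2278 and 5177 bases, and the part of length was not tested. With an E-box in the promoter window the median was 0.34 (4 of 7 genes passed), and without one it was 0.21 (11 of 28). This contrast was not tested either.

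**Figure D5:**
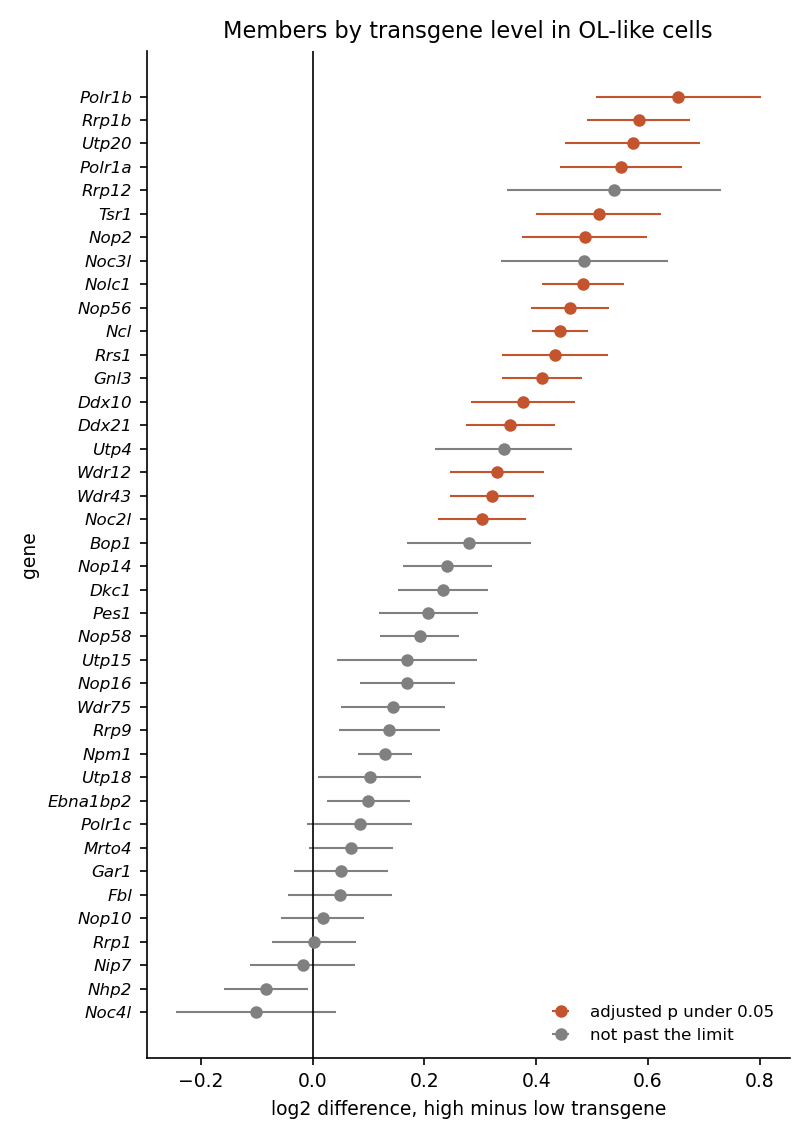
Log2 difference between OL-like cells with high and low transgene (horizontal axis) for each of the 40 genes in order of size, with bars of ± 1 SE of the fit over 4 mice. Orange marks the 16 genes with an adjusted p under 0.05, from Polr1b at 0.65 to Noc2l at 0.30, and Noc4l, Nhp2 and Nip7 lie below 0.

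The number of genes that passed moved with the setting. It was 10 with DESeq2, 4 with bins at 1000 UMIs, 6 without mouse 4, 5 without mouse 7 and 8 in resting cells alone. Without the mouse as a block it was 0, and no gene of the whole table passed. Over the 40 genes, the difference also went with the length of the exons (Spearman's rho 0.56, and 0.31 over 10145 genes), and with this trend removed 13 genes passed. OL-like cells of the cluster led by markers of mature oligodendrocytes, which had been split, were lower in the 40 genes than the other OL-like cells (5456, 3427, 7969 and 9694 against 12607, 13333, 12413 and 13996 CPM in mice 4 to 7), and 17 genes passed without that cluster. With the cluster left whole, none passed at a mean ratio of the sums of 1.51. Shares over all genes were not set beside the counts in these settings, which show only how the number moved.

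The 40 genes differed little between cells called cycling and cells called resting. OL-like cells were called cycling with a UMI of at least 2 of 8 mitotic genes after thinning and resting with none. All 8 genes are mitotic, so cells called resting can include dividing cells in other phases. They can also include cells whose UMIs of these genes were missed. The 40 genes summed to 12626, 13993, 12277 and 13533 CPM in cycling and to 12199.7, 12217, 11354 and 13345 CPM in resting cells, so that cycling cells were higher in every mouse, at a mean ratio of 1.07, and the groups overlapped. The groups also differed in their share of the cluster led by markers of mature oligodendrocytes. In mouse 7 this cluster made up 4.35% to 28.9% of resting cells over the transgene bins, against 0% to 2.19% of cycling cells. It held 9694 CPM of the 40 genes there, against 13996 CPM in other OL-like cells, and its part in the ratio was not tested. Of the 40 genes, 4 were higher and none lower, where 12.7% of 9985 genes were higher and 12.2% lower, and the median difference was 0.04. Utp18 had 111, 118, 109 and 104 CPM in cycling and 97.8, 91.3, 67.4 and 84.2 CPM in resting cells (1.28-fold, SE 0.08 on the log2 scale, adjusted p = 0.00402) and did not overlap. Gar1 (1.17-fold, adjusted p = 0.014), Nop58 (1.14-fold, adjusted p = 0.0225) and Ncl (1.13-fold, adjusted p = 0.0143) were higher in cycling cells of all 4 mice, with overlap between mice. OL-like cells called resting thus held 11354 to 13345 CPM, against 2641 to 2932 CPM in EC called resting of mice 4 to 6. Whether this level holds in cells that have left the cell cycle was not tested.

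Age left no difference that passed the test. OL-like cells held 12280.1 and 13046 CPM at P43 and 12001 and 13632 CPM at P70, so that both P43 mice lay between the P70 mice, and the ratio of the means was 1.01. None of the 40 genes passed in edgeR, nor did any of all 11628 genes (0%), and at an unadjusted p under 0.05 there were 0 of the 40 and 523 of all genes. DESeq2 called 0 of the 40 genes, and over all genes 20 higher and 25 lower. Fitted differences ranged from -0.63 for Utp20 (SE 0.39, with 48.5 and 33.5 CPM at P70 against 43.7 and 78.7 CPM at P43) to 0.31 for Nop56 (SE 0.21, with 506 and 530.1 CPM against 355 and 455 CPM).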

How the data were processed

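The values deposited by the authors are unnormalized counts of UMIs in 4 tumor libraries (10x Genomics 3′ v3.1), made, per the submitters' processing notes, with Cell Ranger 6.0.2 and the build mm10, to which features for human MYCN and luciferase had been added. Cell Ranger counts only reads that map to a single gene, so genes with near-identical copies can lose UMIs.

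Barcodes with fewer than 200 genes, with 25% or more of their UMIs from mitochondrial genes or with over 40000 UMIs were removed, and the last limit was the only step against doublets. Clusters were computed with Seurat 5.3.0 (R 4.3.3) by log normalization, anchor integration, 30 principal components and a resolution of 0.5, with the 40 genes, 77 further ribosome biogenesis genes, ribosomal protein genes and the reporter kept out of the variable genes. Clusters with at least 500 CPM of reporter RNA were tumor clusters, and names came from marker lists, with at least 3 genes of a list raised. One reporter cluster led by markers of mature oligodendrocytes was split into sub-clusters, a step decided after its reporter level and leading genes had been seen. Sub-clusters under the limit without a marker of their own stayed unnamed. The same held for reporter clusters led by immune or vessel markers and for shallow clusters without a marker among their leading genes. Unnamed cells (46, 35, 12 and 71 in mice 4 to 7) entered no comparison. They held 683, 15113, 3976 and 1742 CPM of reporter RNA.

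UMIs were summed per mouse and class (at least 20 cells) and tested with edgeR 4.0.16 (TMM, filterByExpr, quasi-likelihood test, Benjamini-Hochberg adjustment over all genes, limit 0.05), with the mouse as a block because both classes came from the same animal. The study's methods name a test over cells, which was replaced since the mouse is the replicate. Each mouse is 1 library. With the block, p-values set the difference within mice against its variation over these mice. The test of age had no block, so its p-values rest on the spread between mice. For bins of transgene and cycling (Birc5, Ccnb1, Cdk1, Cenpf, Mki67, Top2a, Tpx2, Ube2c), cells were thinned to 2000 UMIs, shallower cells were left out (1321, 22, 83 and 24 OL-like cells in mice 4 to 7), and all UMIs of the remaining cells were summed. Shares of cells are subject to counting error and free RNA. The tests were checked on simulated counts without differences between mice other than depth, and with changes larger than those seen by transgene level. That check therefore does not cover differences as small as these.

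The 40 genes and all lists were chosen with earlier results of these data known. Values in every mouse are given for the most abundant gene of each role, those with the largest and smallest difference from EC, and the 3 with the largest rise and fall past the limit in each comparison. Promoter windows came from RefSeq (GRCm38.p6), and exon lengths and positions from GENCODE on the same build. Alternatives were DESeq2 1.42.0, scaling by library size, no filter on genes, no block, other cell filters, thinning and clusterings, and leaving out each mouse. The split cluster left whole, left out, and the removal of the exon length trend were added after the data had been seen.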

Additional observations from a re-analysis of the deposited data

Results flagged for a closer look

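Of 34 groups of 4 mice looked at, 1 held a mouse far from the others, about what chance gives at 1 in 20 groups. The 40 genes summed to 4032 CPM in Lymphoid cells of mouse 5, against 4436 to 4459 CPM in the other mice, and the gap to the nearest mouse was 0.945 of the whole range.

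The difference between OL-like and mural cells changed with age for 2 of the 40 genes by an interaction term (edgeR, Benjamini-Hochberg adjustment over 10777 genes). Of all these genes 333 passed, so that 2 of 40 was near the share over all genes. The difference between OL-like and mural cells was smaller at P70 than at P43 by 1.57 log2 units for Npm1 (-1.57, adjusted p = 0.013) and by 1.62 for Nop58 (-1.62, adjusted p = 0.0459). Mural cells held 407 and 345 CPM of Npm1 at P43 and 879.7 and 1113 CPM at P70, and 54.9 and 80.2 CPM of Nop58 at P43 against 130.3 and 214 CPM at P70, so that all values were higher at P70. OL-like cells held 3878 and 3828 CPM of Npm1 at P43 and 3431 and 4555 CPM at P70. Reporter RNA in mural cells rose from 56.4 and 67.9 CPM at P43 to 145 and 182 CPM at P70. The share of UMIs from ribosomal protein genes went from 5.66% and 5.74% to 14.3% and 15.2%. Cycling mural cells went from 1.26% and 0.441% to 11.1% and 13.3% of those with 2000 UMIs, which were only 15 in mouse 7. The part of each was not tested. Against EC, Myeloid cells and DC, none of the 40 genes passed the same test, with 0, 1 and 0 at an unadjusted p under 0.05.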

How the results depend on the processing

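The numbers of genes higher than in EC, mural cells, Myeloid cells and DC stayed within 1.5 times in every setting tried, and none was lower. Against MOL, 24 to 37 genes were higher when a mouse was left out and 24 with thinning to 1000 UMIs, where 28 passed the filter. With clusters not split there was no MOL class, so this comparison could not be made. For NB-like against OL-like cells, 0 were higher and 0 lower with DESeq2, no filter on genes, no replicate block, thinning to 1000 UMIs, a limit of 60000 UMIs or all genes allowed as variable genes, and 2 were higher with cells picked by a reporter UMI. The ratio of the sums was 1.33 with thinning, 0.913 at 60000 UMIs, 1.29 without integration and 1.02 with all genes variable. Nop58 turned to -0.43 on the log2 scale at 60000 UMIs. Leaving out a mouse was not run there, since 1 mouse would remain.

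For high against low transgene, 10 genes were higher with DESeq2, 0 without the replicate block, 4 with bins at 1000 UMIs, 8 in resting cells, 0 with clusters not split and 5 to 17 with a mouse left out. The ratio of the sums was 1.35 in resting cells, 1.30 at 60000 UMIs, 1.28 with all genes variable and 1.51 with clusters not split. For cycling against resting cells, 2 were higher with DESeq2, 60000 UMIs or a resolution of 1.0, 0 without the block or with thinned UMIs summed, 8 without integration or with all genes variable and 2 to 3 with a mouse left out, with 0 to 1 lower. With clusters not split, the ratio was 1.25 for cycling and 1.12 for age. Of 558 values of named genes, 501 kept their direction and side of the limit, 56 no longer passed it and 1 turned. The causes were not tested. The rarest genes rest on few UMIs, such as 9 of Polr1b in DC and 12 of Rrp12 in EC.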
